A study of Bos taurus with 32 samples.

Results

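A set of 10 genes known for answering quickly to growth factors was followed through bovine preimplantation development, namely FOS, FOSB, JUN, JUNB, JUND, EGR1, IER2, IER3, ATF3 and MYC. They were chosen by name, and all 10 were found among the 14225 genes listed at every stage. RNA was measured in pools of 15 bovine embryos produced and cultured in vitro, with no strain, breed or age given in the labels. Each of 4 stages had 4 FLI libraries, from embryos cultured with added FGF2, LIF and IGF1, and 4 control libraries, from embryos cultured without this addition. The 4-6 cell and 9-16 cell embryos are cleavage stages, the morula is a compacting ball of cells, and the blastocyst has a trophectoderm, the future placental layer, around an inner cell mass. The labels do not say whether pools of a group came from separate cultures, and the spread between pools that the p-values rest on may be technical. In pooled whole embryos, fewer cells of a type and less RNA per cell cannot be told apart.

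Immediate early genes are transcribed within minutes of a stimulus, without new protein synthesis. FGF2 and IGF1 activate the RAS, RAF, MEK and ERK kinases, and ERK and its partner kinases act through ELK1 and SRF on the promoters of FOS, EGR1 and IER2, while LIF acts mainly through STAT3. The FOS and JUN proteins pair to form the transcription factor AP-1, and MYC pairs with MAX to drive growth genes. In the cow, the embryo's own genome becomes broadly active late in cleavage, and RNA before that is largely maternal.

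Depth was 7013325 to 169438740 reads in 30 of the 32 libraries. The exceptions were control replicate 4 of the morula (83409 reads) and control replicate 6 of the blastocyst (2995 reads), and both are left out of the values below unless stated. Libraries also differed in the share of reads in rRNA fragments. It was under 0.2% in FLI and control replicate 6 at the 4-6 cell stage, in control replicate 11 at the 9-16 cell stage, in FLI replicate 7 and control replicate 1 at the morula stage, and in FLI replicates 5, 6 and 7 at the blastocyst stage. It was 0.232% to 7.17% in the other deep libraries. Stage markers followed the labels: summed signal of 9 oocyte and cleavage genes was 7619 to 18750 at the 4-6 cell stage and 29.1 to 129.6 in blastocysts, where 6 trophectoderm genes summed to 27173 to 53789. Markers of cumulus and granulosa cells, the cells around the oocyte, were mixed. FOXL2, AMH, CYP19A1 and LUM had group means of at most 3.48 signal units at every stage, and FSHR averaged 8.52 ± 4.26 in FLI and 9.54 ± 4.02 in control blastocysts (SD, n = 4 and 3). Other genes of the list were high: STAR averaged 315 in FLI and 310 in control embryos and HAS2 82.1 and 82.5 at the 4-6 cell stage, STAR 197 and 185 at the 9-16 cell stage, and PTGS2 1232 and 1554 and CYP11A1 148 and 180 in blastocysts. The whole list of 18 summed to 867 to 2592 in FLI and 1322 to 2359 in control blastocysts, 34.9 to 56.0 and 33.3 to 43.4 in morulae, 329 to 440 and 292 to 415 at the 9-16 cell stage and 438 to 529 and 387 to 537 at the 4-6 cell stage, and its part in the results was not tested. Markers of sperm summed to at most 110.8 and markers of blood and immune cells to at most 129.7 in any deep library.

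On the ARS-UCD1.2 build, FOS lies on chromosome 10 at 86488645 to 86492108 with 4 merged exons, and FOSB on chromosome 18 at 53074888 to 53081288 with 4. JUN lies on chromosome 3 at 87265962 to 87268007, while JUNB (12736091 to 12737893), IER2 (12433859 to 12435630), JUND (4912209 to 4913960) and EGR1 (49825961 to 49830306) are all on chromosome 7. IER3 lies on chromosome 23 at 28284912 to 28286183, ATF3 on chromosome 16 at 70924511 to 70937490 and MYC on chromosome 14 at 12653173 to 12658366. JUNB, JUND and IER2 are single-exon genes, and no other listed gene overlapped any of the 10.

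The first question was how each gene changes from stage to stage. Reads recovered from the deposited values were put on 1 scale as counts per 1000000 reads (CPM), and successive stages were compared with limma on log2(CPM + 1), separately in FLI and control embryos. Called means a p under 0.05 after Benjamini-Hochberg adjustment across 13388 genes. The added 1 makes a change in a gene at about 1 CPM look smaller than it is. Between the 4-6 cell and 9-16 cell stages 6 of the 10 genes were called in FLI embryos, where 31.2% of all genes were called (15.2% higher and 16% lower), and 4 in control embryos, where 26% were (13.7% and 12.3%). All of these were higher at the later stage. Between the 9-16 cell stage and the morula 8 were called in FLI embryos (73.3% of all genes) and 7 in control embryos (73.6%), a share near the background. In FLI embryos 6 were higher and 2 lower (40.6% and 32.6% of all genes), and in control embryos 5 were higher and 2 lower (39% and 34.6%). Between the morula and the blastocyst 5 were called in FLI embryos (40.7% of all genes), 1 higher and 4 lower (18.8% and 22%), and 2 in control embryos (32.8%), 1 higher and 1 lower (17.6% and 15.2%). The median difference of all genes was -0.11 and -0.14 for the first step, 0.23 and 0.13 for the second and -0.08 and -0.02 for the third, in FLI and control embryos in that order.

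**Figure D1:**
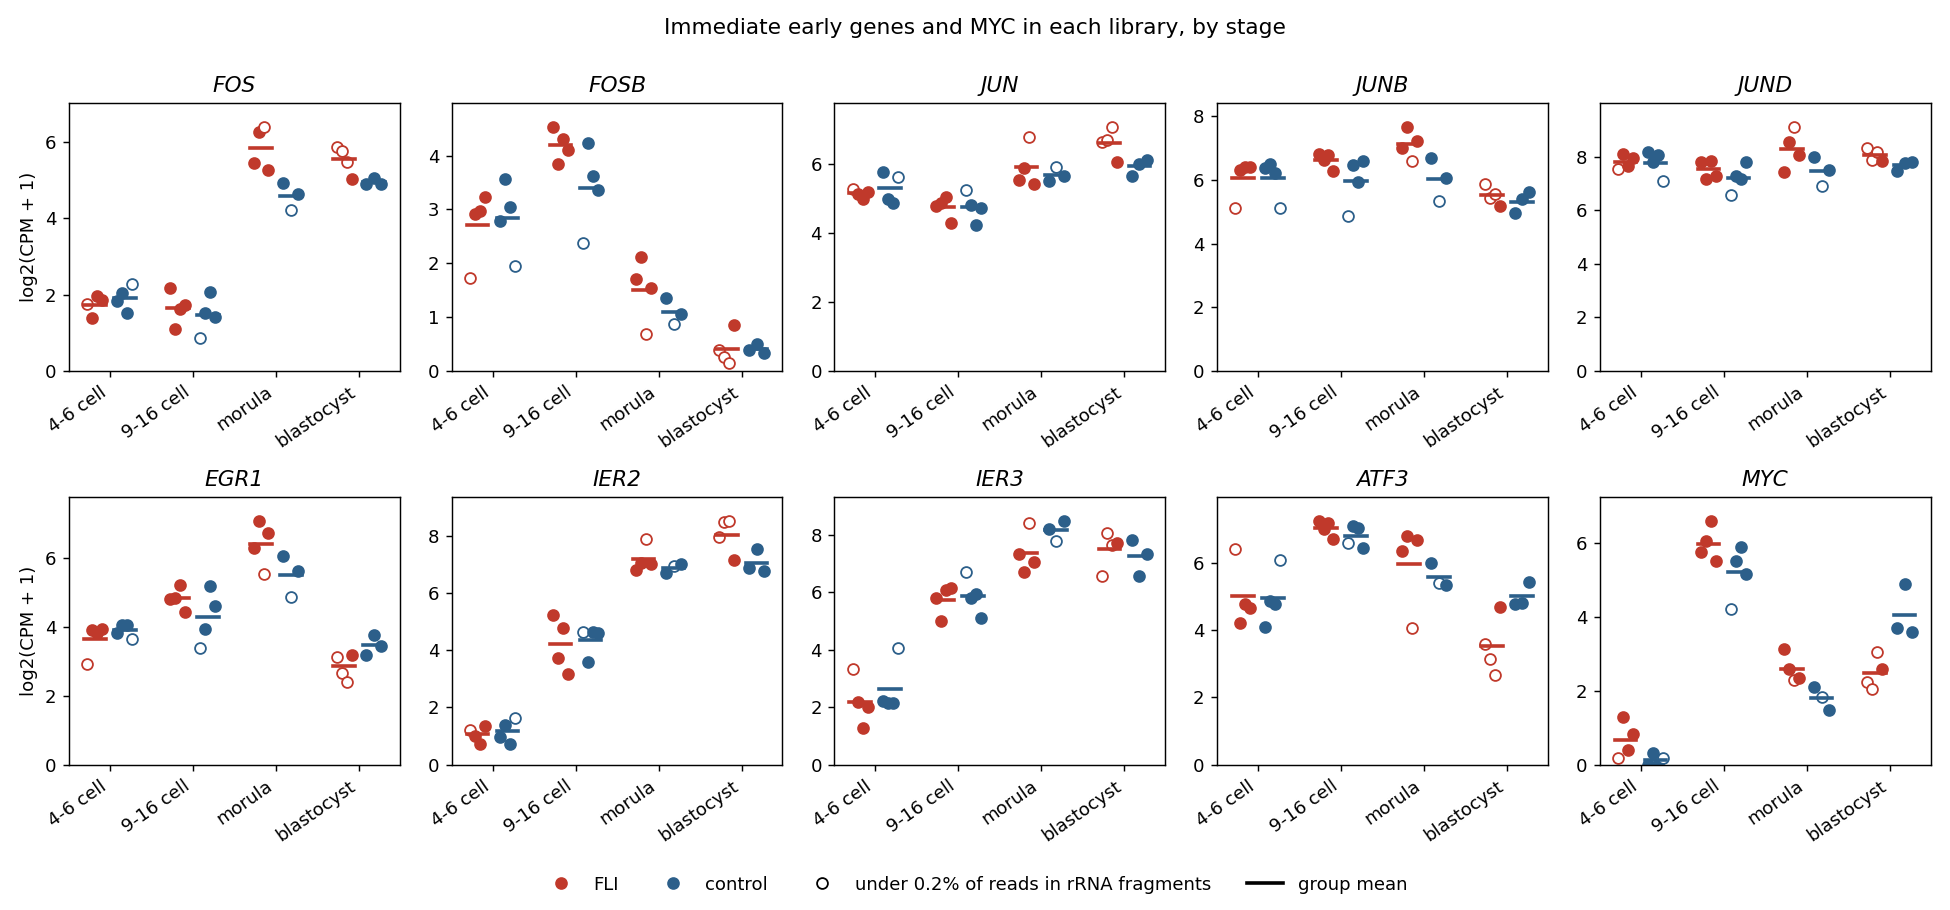
Level of each of the 10 genes in every deep library as log2(CPM + 1), by stage, with FLI libraries in red left of control libraries in blue, the group mean as a bar, and open circles for libraries with under 0.2% of reads in rRNA fragments. MYC stands out at the 9-16 cell stage, FOS is high only from the morula on, and FOSB shows the opposite order.

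MYC was highest at the 9-16 cell stage in both groups. At the 4-6 cell stage it was close to absent, with 12, 41, 7 and 14 reads in FLI replicates 6, 9, 7 and 8, and 10, 4, 0 and 0 reads in control replicates 6, 7, 8 and 9. For the control libraries at 0, a count of 0 allows up to 3 reads, or 0.157 and 0.168 signal units, counting error only. At the 9-16 cell stage it reached 44.3, 53.3, 65.1 and 94.7 CPM in FLI embryos and 17.6, 34.9, 44.7 and 58.4 CPM in control embryos. Every 9-16 cell library was thus far above every 4-6 cell library, and MYC rose by a log2 difference of 5.30 ± 0.34 in FLI and 5.07 ± 0.34 in control embryos (SE; adjusted p = 7.71e-13 and 2.4e-12). In the morula it was 3.92, 4.06, 4.97 and 7.78 CPM in FLI embryos and 1.76, 2.55 and 3.29 CPM in control embryos, and the log2 difference from the 9-16 cell stage was -3.39 ± 0.34 and -3.40 ± 0.36 (adjusted p = 9.31e-10 and 4.32e-09). From morula to blastocyst the groups parted. MYC was 3.12, 3.69, 5.06 and 7.28 CPM in FLI blastocysts and 11.04, 11.9 and 28.3 CPM in control blastocysts. It rose in control embryos, by 2.25 ± 0.39 (adjusted p = 5.22e-05), and its step in FLI embryos was -0.11 ± 0.34 (adjusted p = 0.827). The difference between these steps was -2.36 ± 0.51, with an adjusted p of 0.107 over all genes, so it did not pass the threshold.

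At every stage a paralog of MYC had a higher mean than MYC (values below are deposited signal per kilobase of exon, compared within a stage and singled out after they were seen). At the 4-6 cell stage MYCL averaged 63.2 ± 34.5 in FLI and 54.5 ± 28.5 in control embryos, against 0.297 ± 0.26 and 0.0426 ± 0.055 for MYC (SD, n = 4 each). At the 9-16 cell stage all 3 paralogs were present: MYCL at 62.8 and 44.7, MYC at 28.2 and 17.6, and MYCN at 27.1 and 23.1 in FLI and control embryos in that order. In the morula MYCN was the highest of the 3, at 22.7 ± 3.86 in FLI (n = 4) and 11.2 ± 2.89 in control embryos (n = 3), against 1.65 ± 0.63 and 0.856 ± 0.26 for MYC. MYCN was also the highest in the blastocyst, at 15.7 ± 6.65 and 16.8 ± 3.29, where MYC was at 1.74 ± 0.63 in FLI and 6.24 ± 3.60 in control embryos.

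FOS and FOSB, which both encode partners of JUN, exchanged places between the 9-16 cell stage and the morula. FOS was at 1.12 to 3.53 CPM in the 9-16 cell FLI libraries and 0.802 to 3.21 CPM in the control ones. In the morula it was at 37.5, 42.9, 75.7 and 82.9 CPM in FLI embryos and 17.5, 23.9 and 29.5 CPM in control embryos. The ranges of both stages are far apart, and FOS rose by 4.19 ± 0.29 in FLI (adjusted p = 5.04e-13) and 3.13 ± 0.31 in control embryos (adjusted p = 9.38e-10). It stayed near that level in blastocysts, with steps of -0.29 ± 0.29 and 0.36 ± 0.33 (adjusted p = 0.434 and 0.426). FOSB was at 13.4, 16.4, 18.8 and 22.1 CPM in 9-16 cell FLI embryos and 4.22, 9.33, 11.3 and 17.9 CPM in 9-16 cell control embryos. In the morula it was at 0.600 to 3.33 CPM in FLI and 0.817 to 1.55 CPM in control embryos, a log2 difference of -2.69 ± 0.36 and -2.32 ± 0.39 (adjusted p = 2.37e-07 and 8.19e-06). Per kilobase of exon, FOS made up 11.2% to 19.5% of the sum of FOS and FOSB in the 9-16 cell FLI libraries and 13.5% to 29.96% in the control ones, 96.6% to 99.5% and 96.6% to 97.1% in the morula, and 98.4% to 99.9% and 99.2% to 99.4% in the blastocyst. At the 4-6 cell stage this share was 27.1% to 60.8% in FLI and 28.2% to 67.2% in control libraries. FOS exceeded FOSB there only in replicate 6 of each group. FOSB was 0.0966 to 0.795 CPM in FLI and 0.249 to 0.402 CPM in control blastocysts. From the 4-6 cell to the 9-16 cell stage FOSB rose in FLI embryos (1.49 ± 0.36, adjusted p = 0.00223), while its step in control embryos was 0.57 ± 0.36 (adjusted p = 0.275), and the difference between these steps was 0.92 ± 0.51 (adjusted p = 1.0).

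**Figure D2:**
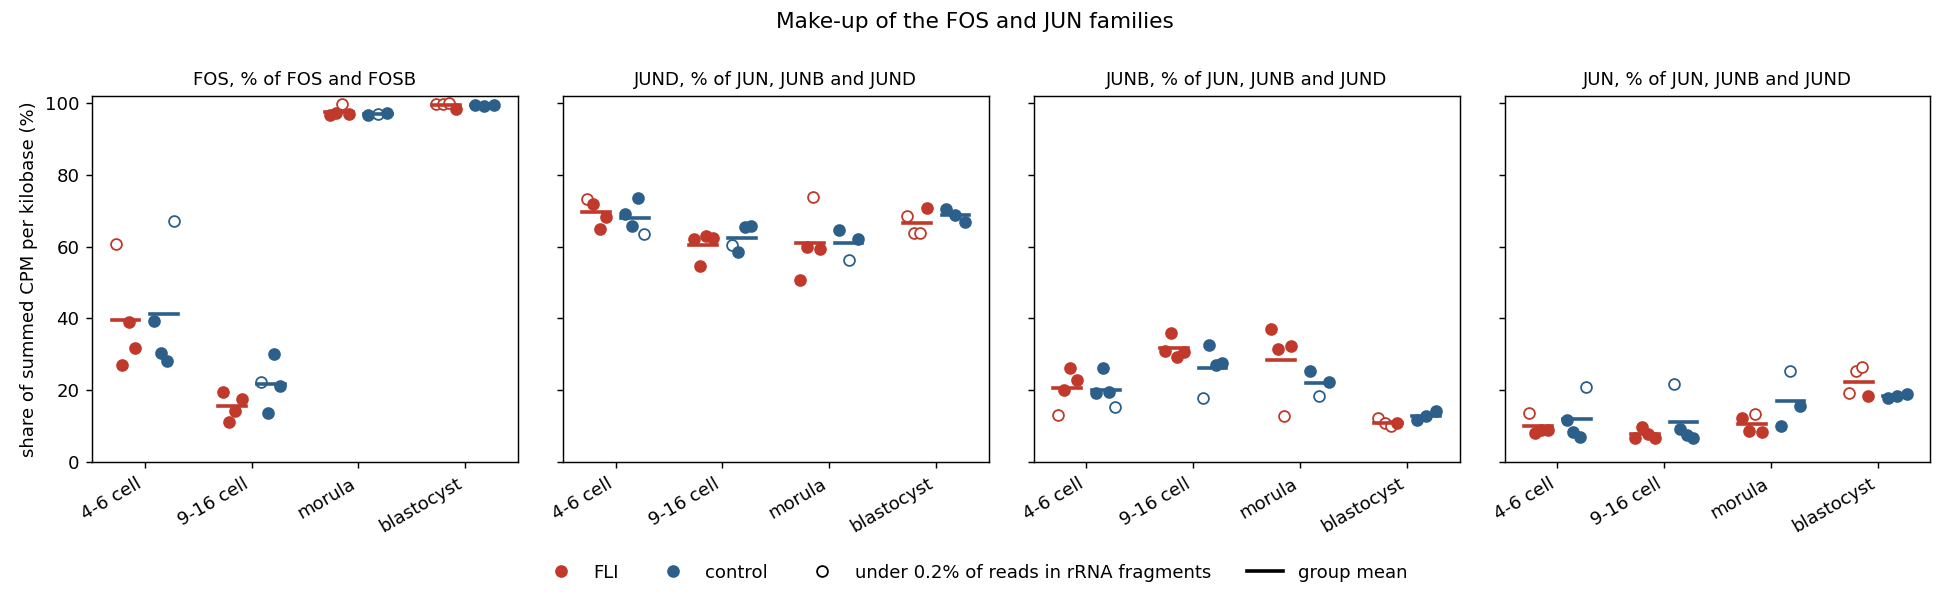
Share of FOS in the sum of FOS and FOSB, and of JUND, JUNB and JUN in the sum of the JUN family, in percent of CPM per kilobase of exon, for each deep library by stage (FLI red and left, control blue and right, bars for group means). FOS moves from 11.2% to 29.96% at the 9-16 cell stage to over 96% from the morula on, while JUND holds over 50% of the JUN family in every library.

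The JUN family moved less. JUND, the AP-1 subunit that is expressed in most resting cells, averaged 226, 186, 336 and 267 CPM in FLI and 227, 153, 184 and 203 CPM in control embryos from the 4-6 cell stage to the blastocyst. It was the most abundant of the 3 JUN genes per kilobase in every deep library, with 50.6% to 73.9% of their sum. Its only call was the step to the morula in FLI embryos (0.75 ± 0.31, adjusted p = 0.0336), which was 0.15 (adjusted p = 0.663) without FLI morula replicate 7, a library at 544 CPM, and was also lost without FLI morula replicate 2 (0.67) or 9-16 cell FLI replicate 11 (0.64) or 13 (0.67). JUN was at 18.5 to 32.2 CPM in 9-16 cell FLI libraries and 18.02 to 37.2 CPM in control ones, and it rose in the morula by 1.17 ± 0.28 in FLI (adjusted p = 6.11e-04) and 0.94 ± 0.30 in control embryos (adjusted p = 0.00758). The call in FLI embryos was lost without FLI replicate 7 (0.55, adjusted p = 0.0615) and the call in control embryos without control replicate 1 (0.71, adjusted p = 0.0673). JUN rose again in FLI blastocysts, by 0.71 ± 0.28 (adjusted p = 0.0457), a call lost on leaving out any of 5 of the 8 libraries, FLI morula replicates 2, 4 and 6 or FLI blastocyst replicates 5 and 7. JUNB, which can oppose JUN, was at 96.3, 127, 149 and 200 CPM in FLI morulae and at 35.6, 41.8, 46.5 and 58.0 CPM in FLI blastocysts, and it fell by 1.61 ± 0.37 on the log2 scale (adjusted p = 0.00104). In control embryos it was at 29.8, 40.8 and 47.9 CPM in blastocysts and 39.6, 65.5 and 103 CPM in morulae, a step of -0.72 ± 0.43 (adjusted p = 0.202).

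ATF3, a stress-induced relative of the AP-1 factors that mostly represses, peaked at the 9-16 cell stage. It was at 106, 129, 145 and 152 CPM in FLI embryos and 86.3, 96.2, 132 and 137 CPM in control embryos, against 17.6 to 85.0 and 16.3 to 68.3 CPM at the 4-6 cell stage. It rose by 2.02 ± 0.51 in FLI (adjusted p = 0.00314) and 1.83 ± 0.51 in control embryos (adjusted p = 0.00868). The later decline was unevenly placed. To the morula the steps were -1.06 ± 0.51 and -1.21 ± 0.55 (adjusted p = 0.0657 and 0.0507), and from morula to blastocyst ATF3 fell by 2.46 ± 0.51 in FLI embryos (adjusted p = 3.98e-04), while the step in control embryos was -0.57 ± 0.59 (adjusted p = 0.494). The difference between the last 2 steps was -1.90 ± 0.78 (adjusted p = 0.194).

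EGR1, a zinc-finger factor induced by ERK, peaked in the morula. In FLI embryos it was at 4.28, 5.35, 7.75 and 8.11 CPM in blastocysts and 44.8, 77.0, 104 and 132 CPM in morulae. In control embryos it was at 8.04, 9.94 and 12.5 CPM in blastocysts and 27.9, 48.4 and 65.2 CPM in morulae. The groups of both stages do not overlap, and EGR1 fell by 3.55 ± 0.35 in FLI (adjusted p = 6.98e-09) and by 2.05 ± 0.40 in control embryos (adjusted p = 2.69e-04). The difference between these drops was -1.50 ± 0.53 (adjusted p = 0.174). EGR1 had risen into the morula by 1.57 ± 0.35 in FLI and 1.24 ± 0.38 in control embryos (adjusted p = 2.52e-04 and 0.00489). The step before that, from the 4-6 cell stage, was a rise in FLI embryos (1.18 ± 0.35, adjusted p = 0.0108) that was not called without FLI replicate 6 (0.93, adjusted p = 0.0553), and 0.38 ± 0.35 in control embryos (adjusted p = 0.475). NAB2, which encodes a corepressor of EGR1, followed EGR1 most closely over the 30 deep libraries, with a Pearson r of 0.951. This ranking covered tested genes with a symbol, without the members and names of microRNA, rRNA and other small RNA. These libraries share the 4 stages, so the value mostly describes the stage pattern.

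IER2 and IER3, small immediate early proteins of which IER3 acts on cell survival, climbed over several stages. IER2 was at 0.628 to 1.52 CPM in FLI and 0.643 to 2.06 CPM in control embryos of the 4-6 cell stage. It was at 8.02 to 36.9 and 11.1 to 24.1 CPM at the 9-16 cell stage, 112 to 238 and 103 to 129 CPM in the morula, and 141 to 364 and 109 to 185 CPM in the blastocyst. Up to and including the morula, no stage overlapped the one before it. The rises were 3.17 ± 0.37 and 2.97 ± 0.37 in FLI and 3.20 ± 0.37 and 2.51 ± 0.40 in control embryos (adjusted p = 1.27e-07, 6.67e-08, 1.34e-07 and 3.61e-06). IER3 averaged 4.22 ± 3.25, 55.1 ± 17.5, 182.5 ± 104.1 and 191.7 ± 71.0 CPM in FLI embryos over the 4 stages (SD, n = 4 each), and 6.49 ± 6.01, 62.7 ± 29.1, 288.1 ± 66.1 and 159.7 ± 64.8 CPM in control embryos (n = 4, 4, 3 and 3). It rose at the first step by 3.55 ± 0.47 in FLI and 3.25 ± 0.47 in control embryos, and at the second by 1.63 ± 0.47 and 2.27 ± 0.50 (adjusted p = 8.56e-07, 4.39e-06, 0.00292 and 2.55e-04). The second rise in FLI embryos was not called without FLI morula replicate 7, which held 335 CPM (0.96, adjusted p = 0.0857). By length, JUND stayed among the leading genes, and IER3 and IER2 joined it. At the 4-6 cell stage JUND was highest, at 129.0 ± 23.0 and 129.5 ± 39.0 CPM per kilobase in FLI and control embryos, with no overlap with JUNB in the next place, and MYC was lowest. In blastocysts IER3 (163.5 ± 60.6 and 136.3 ± 55.2), IER2 (157.0 ± 59.7 and 77.5 ± 23.5) and JUND (152.5 ± 24.9 and 116.1 ± 13.5) held the top places, where neighbours overlapped in range, and FOSB was lowest.

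**Figure D3:**
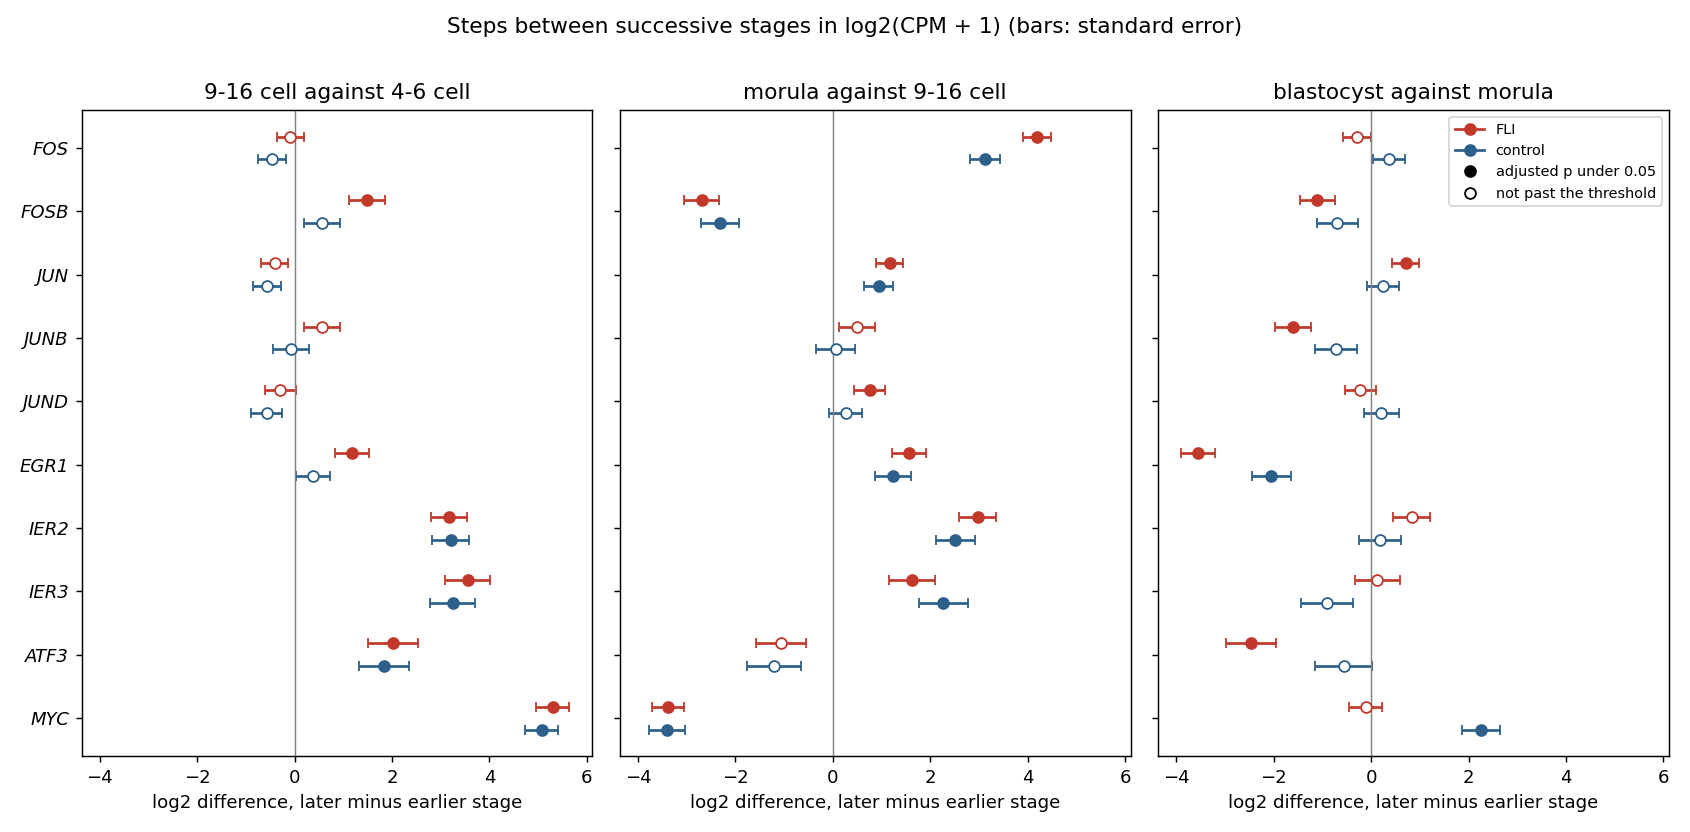
Log2 difference in CPM + 1 between each stage and the one before it for the 10 genes, with standard errors, FLI embryos in red above control embryos in blue; filled points passed an adjusted p of 0.05. MYC rises at the first step and falls at the second in both groups, and at the third step MYC, at 2.25 in control and -0.11 in FLI embryos, is farthest apart.

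The part that the rRNA share plays in these steps was not tested. Among the 22 deep libraries with at least 0.2% of reads in rRNA fragments, the counts of the 10 genes called were 6, 8 and 3 in FLI embryos (with 1 FLI blastocyst library, assumed to vary like the others) and 6, 8 and 5 in control embryos for the 3 steps in order. In the same fit 42.0%, 79.5% and 40.6% of all genes were called in FLI embryos and 37.0%, 78.1% and 41.8% in control embryos.

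Other gene lists were read for the same steps. The lists were written with earlier results of these data known, and counts are of genes called over all genes tested. They are to be read against the shares of all genes called, which were 15.2% higher and 16% lower in FLI and 13.7% and 12.3% in control embryos at the first step. Of 29 other immediate early genes, 13 were higher and 2 lower at the 9-16 cell than the 4-6 cell stage in FLI embryos (median 0.75), and 10 were higher and 3 lower in control embryos (median 0.58). SGK1, a growth-factor-induced kinase, averaged 238.2 ± 75.6 and 155.3 ± 53.7 CPM in 9-16 cell FLI and control embryos, against 0.750 ± 0.34 and 0.975 ± 0.72 CPM at the 4-6 cell stage (log2 difference 7.05 and 6.30). KLF10, a zinc-finger repressor, rose by 6.78 in FLI and 6.05 in control embryos, DUSP1, a phosphatase that switches off MAP kinases, by 5.63 and 4.63, and TNFAIP3, a brake on NF-kappa B, by 4.44 and 4.19 in the same order. At the next step, to the morula, where 40.6% of all genes were higher and 32.6% lower in FLI and 39% and 34.6% in control embryos, 6 were higher and 14 lower in FLI embryos and 3 higher and 13 lower in control embryos, with TNFAIP3 at -4.43 and -4.03 and PPP1R15A, a stress-induced phosphatase subunit, at -3.48 and -3.53. From morula to blastocyst, where 18.8% of all genes were higher and 22% lower in FLI and 17.6% and 15.2% in control embryos, 4 were higher and 12 lower in FLI and 3 higher and 4 lower in control embryos, with NR4A1, an orphan nuclear receptor, at -2.04 and -1.51.

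Of 10 other AP-1 and related bZIP genes tested, 2 were higher and 8 lower in the morula than at the 9-16 cell stage in FLI embryos (median -2.07), and 1 was higher and 8 lower in control embryos (median -2.28), a step at which 73.3% and 73.6% of all genes were called (32.6% and 34.6% lower). FOSL1 and FOSL2, the other FOS relatives, were at -2.75 and -2.46 in FLI and -2.77 and -3.19 in control embryos. FOS, with 4.19 and 3.13, thus stood on the other side of zero from its 3 relatives at this step. At the first and last steps this list had 2 calls, both higher, in FLI embryos each time, where 15.2% and 18.8% of all genes were higher. In control embryos it had 2 and 5 calls, all higher, where 13.7% and 17.6% of all genes were higher. Of 14 MYC network genes tested, 4 were higher and 6 lower in the morula than at the 9-16 cell stage in FLI embryos (median -0.18). In control embryos 5 were higher and 5 lower (median -0.15). Of all genes, 40.6% were higher and 32.6% lower in FLI and 39% and 34.6% in control embryos. Among those lower were MXI1 and MNT, MAX partners that oppose MYC, with log2 differences of -3.67 and -3.23 in FLI and -3.40 and -3.57 in control embryos. Of 21 MYC target genes, 17 were higher and 1 lower in the morula than at the 9-16 cell stage in FLI embryos and 16 higher and 2 lower in control embryos (40.6% and 39% of all genes were higher). Among them CCND2 and CDK4, cell cycle genes, rose by 5.10 and 3.61 in FLI and 5.54 and 3.53 in control embryos.

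The second question was what the added FGF2, LIF and IGF1 changed at each stage. It was tested by limma on log2(signal + 1), where signal is the authors' deposited value for reads scaled to library size, and a fold near 1 signal unit is understated. No member of the 10 was called at any stage, and the percentage of all genes called was 0 at each. At an unadjusted p under 0.05 there were 12, 293, 4203 and 2049 genes from the 4-6 cell stage to the blastocyst, with 0, 0, 3 and 4 of the 10 among them. The edgeR quasi-likelihood test on recovered reads called 0, 0, 891 and 0 genes and none of the 10, and DESeq2 called 0, 0, 2547 and 474 genes, with FOS in the morula and MYC in the blastocyst. FLI and control libraries overlapped for all 9 genes tested at the 4-6 cell stage, where 0.344% of all genes did not overlap (0.269% higher and 0.0747% lower with FLI), and for all 10 at the 9-16 cell stage, where 1.8% did not (1.19% and 0.615%). They did not overlap for 2 of 10 genes in the morula, both higher with FLI, against 8.73% of all genes higher and 12.5% lower (21.3% in all). In the blastocyst 4 of 9 did not overlap, 2 higher and 2 lower, against 6.93% of all genes higher and 5.86% lower (12.8% in all). The median FLI minus control difference of the members tested was -0.15, 0.25, 0.52 and 0.26 by stage, and that of all genes -0.01, 0.01, 0.08 and 0.04.

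**Figure D4:**
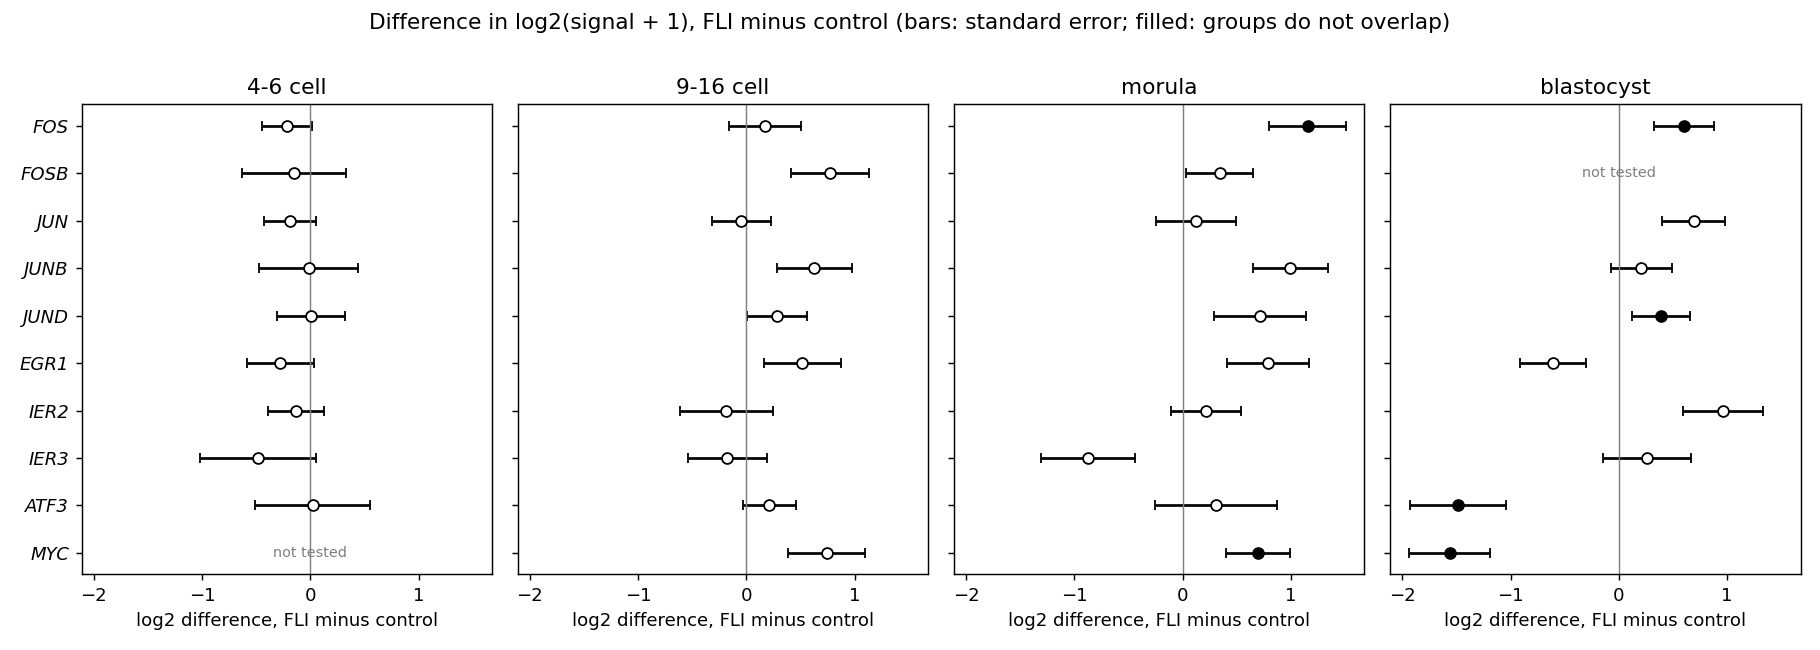
FLI minus control difference in log2(signal + 1) with its standard error for each gene at each stage; filled points mark genes whose FLI and control libraries do not overlap. In the morula 9 of 10 points lie above 0, and in the blastocyst ATF3 and MYC lie at -1.48 and -1.56.

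In the morula FOS had 30.2, 38.3, 59.5 and 76.2 signal units in FLI embryos and 15.8, 21.9 and 26.7 in control embryos. All FLI libraries were above all control libraries, and the log2 difference was 1.15 ± 0.35 (SE), with an adjusted p of 0.0776 by limma, 0.0645 by edgeR and 0.0134 by DESeq2. The authors' deposited table, made with the shallow control library, gives it a log2 fold change of -1.37 as control minus FLI and a false discovery rate of 0.0168. Other measures also separated these libraries with no overlap. Oocyte and cleavage genes summed to 28.5 to 59.1 in FLI and 74.1 to 130.7 in control morulae. Of these genes OOEP (mean 14.8 in FLI and 55.8 in control) and BTG4 (7.68 and 26.8) differed most. BMP15 (5.14 and 3.77) and ZP4 (3.11 and 2.26) had higher means with FLI, and GDF9, ZP2, ZP3, NLRP5 and ZAR1 lower ones. Ribosomal protein genes held 3.89% to 5.78% of reads in FLI and 6.25% to 10.1% in control morulae. Mitochondrial protein genes held 1.07% to 2.72% and 3.03% to 3.96% in the same order. The part of these measures in the FLI differences was not tested. JUNB had 88.5, 114, 120 and 157 signal units in FLI and 35.8, 59.9 and 93.0 in control morulae, a difference of 0.99 ± 0.35 (adjusted p = 0.0998), with 1 control library inside the FLI range. Control replicate 7, at 26.7 for FOS and 93.0 for JUNB the highest control in both, set whether limma called either. Without it limma called 4620 genes, with FOS at 1.32 (adjusted p = 0.0275) and JUNB at 1.32 (adjusted p = 0.0141). Over all alternatives the adjusted p ran from 0.0134 to 0.973 for FOS and from 0.0141 to 0.990 for JUNB, the highest with the shallow control put back. EGR1 averaged 74.3 ± 26.4 in FLI (SD, n = 4) and 42.8 ± 17.0 in control morulae (n = 3), a difference of 0.79 ± 0.38 (adjusted p = 0.182). MYC, with 3.27, 3.60, 3.91 and 6.94 in FLI and 1.60, 2.30 and 2.98 in control morulae, did not overlap either, at 0.70 ± 0.29 (adjusted p = 0.141). IER3 was the only one of the 10 below 0, at 80.6, 107, 143 and 307 in FLI and 199, 264 and 322 in control embryos, a difference of -0.87 ± 0.43 (adjusted p = 0.189). JUND, ATF3, FOSB, IER2 and JUN lay between 0.71 and 0.12 (adjusted p from 0.262 to 0.823). FLI morula replicate 7, with 0.00225% of reads in rRNA fragments, held the highest value of its group for FOS, JUN, JUND, IER2 and IER3 and the lowest for FOSB, JUNB, EGR1 and ATF3. Without it the JUN difference was -0.21 and the IER2 difference -0.05. Among morula libraries with at least 0.2% of reads in rRNA fragments, 3 FLI and 2 control, FOS was at 0.74 (adjusted p = 0.245) and JUNB at 0.78 (adjusted p = 0.224).

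In the blastocyst MYC had 3.08, 3.67, 5.05 and 6.89 signal units in FLI embryos and 10.6, 11.8 and 27.8 in control embryos. Every FLI library was below every control library, and the difference was -1.56 ± 0.38 with an adjusted p of 0.162 by limma, 0.186 by edgeR (-1.91) and 0.00452 by DESeq2 (-1.91). ATF3 had 5.08, 7.81, 11.001 and 25.1 in FLI and 26.6, 27.0 and 40.7 in control blastocysts, a difference of -1.48 ± 0.45 (adjusted p = 0.201). In the authors' deposited table, which includes the shallow control library, the control minus FLI log2 fold change was 1.65 for MYC and 1.69 for ATF3, with false discovery rates of 0.00636 and 0.00518. Depth also separated the deep blastocyst libraries with no overlap, at 111357660 to 169438740 reads in FLI and 62631346 to 107051368 in control. Some marker sums did so too. Trophectoderm genes summed to 32271 to 53789 in FLI and 27173 to 29368 in control blastocysts. NANOG and POU5F1 summed to 1409 to 3122 and 1073 to 1405, and blood and immune markers to 103.3 to 129.7 and 78.6 to 86.0. These differences lay mainly in KRT8 (mean 34524 in FLI and 19524 in control), POU5F1 (2266 and 1175) and PECAM1 (114 and 80.1). KRT18 (8476 and 8244) and GATA3 (145 and 141) hardly differed. CDX2 (54.5 and 60.1), IFNT (12.1 and 18.3), IFNT2 (0.841 and 1.29) and NANOG (82.5 and 105) had lower means with FLI. Sums of oocyte and cleavage, cumulus and granulosa, sperm and hypoblast markers overlapped. The part of these markers and of depth in the FLI differences was not tested. FLI replicates 5, 6 and 7 held 2.49e-04% to 0.00428% of reads in rRNA fragments, FLI replicate 8 held 0.387% and the controls 0.232% to 1.11%. FLI replicate 8 had an ATF3 signal of 25.1, next to the lowest control at 26.6, and a MYC signal of 5.05, well under the lowest control at 10.6. Without FLI replicate 8 limma called 386 genes, ATF3 among them at -1.88 (adjusted p = 0.0415), and without control replicate 5 it called 177 genes and none of the 10. Over all alternatives the adjusted p ran from 0.00452 to 0.720 for MYC and from 0.0415 to 0.908 for ATF3, the highest with the shallow control put back. IER2 had 141, 248, 345 and 353 in FLI and 105, 116 and 182 in control blastocysts (0.96 ± 0.37, adjusted p = 0.269), and JUN had 65.7, 99.1, 103 and 127 in FLI and 49.2, 62.7 and 66.6 in control blastocysts (0.69 ± 0.29, adjusted p = 0.293). For both, FLI replicate 8 was the lowest FLI library and lay within the control range. FOS and JUND were higher in every FLI library than in every control library, at 0.60 ± 0.28 and 0.39 ± 0.27 (adjusted p = 0.330 and 0.503). EGR1 was at 6.28 ± 1.94 in FLI and 9.93 ± 2.21 in control blastocysts (-0.61 ± 0.30, adjusted p = 0.357), and IER3 and JUNB differed by 0.26 ± 0.40 and 0.21 ± 0.28. FOSB, at a mean of 0.345 in FLI and 0.309 in control embryos, was under the level tested.

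**Figure D5:**
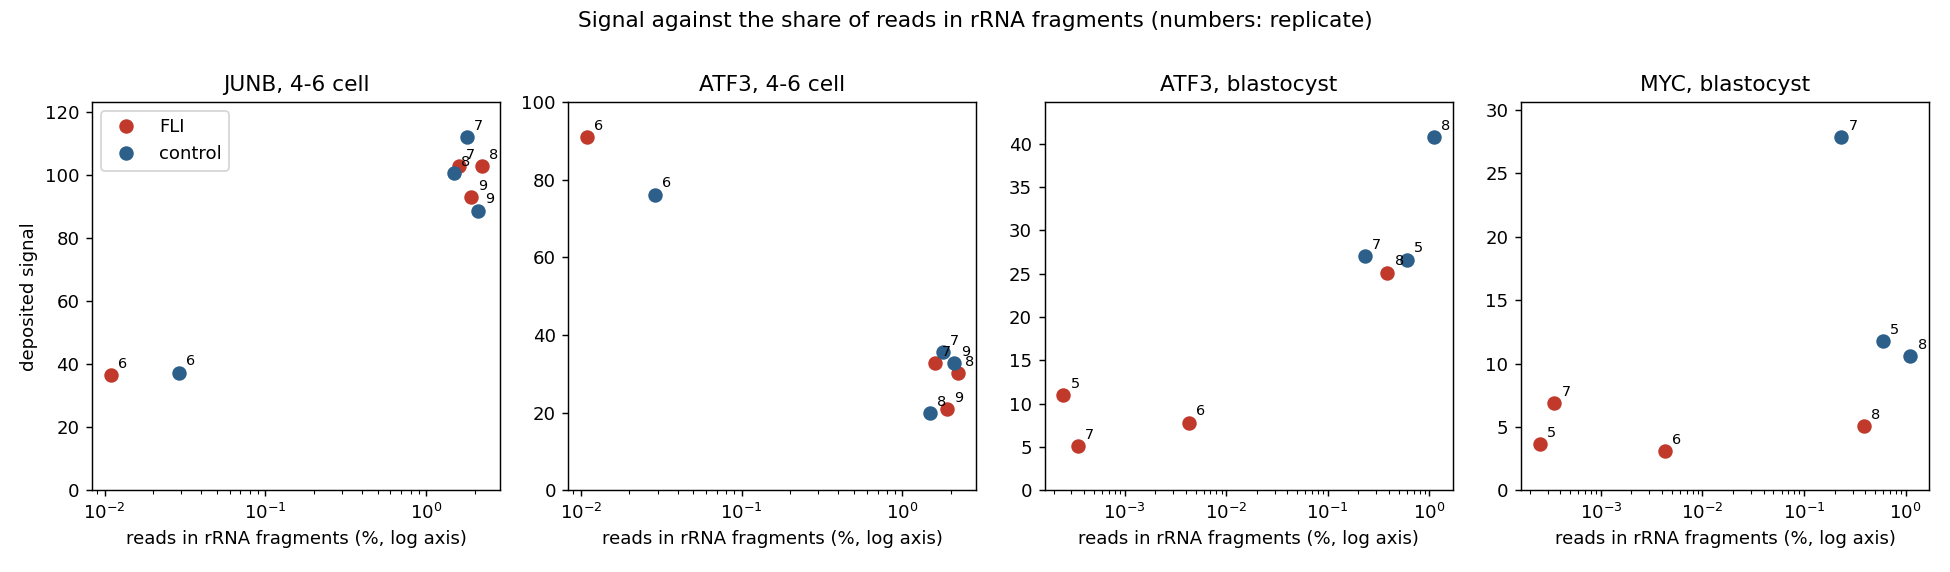
Deposited signal of JUNB and ATF3 at the 4-6 cell stage and of ATF3 and MYC at the blastocyst stage against the percent of reads in rRNA fragments on a log axis, with 1 point per deep library (FLI red, control blue) and the replicate number beside it. At the 4-6 cell stage both libraries numbered 6 stand apart. At the blastocyst stage FLI replicate 8 lies just under the lowest control for ATF3 (25.1 against 26.6) and well below the controls for MYC.

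At the 4-6 cell stage the libraries split into replicate 6 of both groups and the rest, and not by treatment. ATF3 was at 90.9 signal units in FLI replicate 6 and 76.2 in control replicate 6, against 20.8 to 32.8 and 19.8 to 35.7 in the other FLI and control libraries. JUNB went the other way, at 36.4 and 37.3 in replicate 6 against 93.0 to 103 and 88.7 to 112 in the rest. FOSB, EGR1 and JUND were also lowest in replicate 6 of each group, and IER3 highest. These replicates held 0.0109% and 0.0290% of reads in rRNA fragments against 1.49% to 2.21% in the others, and the part of this share was not tested. The 9 genes tested differed between FLI and control embryos by -0.48 to 0.02, with standard errors of 0.23 to 0.53 and adjusted p-values of 1.0 in the fit without pairs. With the replicate number as a block no adjusted p was under 0.998. IER3, singled out after its values were seen, was lower with FLI at all 4 replicate numbers, by little at number 9. It was at 9.53, 1.75, 3.73 and 4.14 in FLI against 17.3, 4.19, 4.44 and 4.19 in control replicates 6, 7, 8 and 9. A pairing of numbers 7, 8 and 9 is not shown, so this only describes the values. MYC, under the level tested, had 0.149, 0.383, 0.933 and 1.71 in FLI and 0, 0, 0.146 and 0.310 in control embryos; with no limit on level its difference was 0.62 ± 0.26 (unadjusted p = 0.0426, adjusted p = 1.0). At the 9-16 cell stage the largest differences were in FOSB (0.77 ± 0.36), at 16.1, 19.7, 21.3 and 26.3 in FLI and 5.22, 10.7, 13.8 and 22.5 in control embryos, MYC (0.74 ± 0.36), at 53.3, 63.4, 78.0 and 108 in FLI and 21.8, 40.1, 56.1 and 70.8 in control embryos, and JUNB (0.63 ± 0.34). Each had an adjusted p of 0.910 and overlapping groups. Control replicate 11, with 0.115% of reads in rRNA fragments, was the lowest library for all 3, and without it FOSB was at 0.43, MYC at 0.42 and JUNB at 0.27.

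Whether the effect of FLI differed among the stages was tested by a moderated F test in 1 fit over the 30 deep libraries. None of the 10 and none of all 13388 genes passed (1147 genes had an unadjusted p under 0.05, and the edgeR version called 0). MYC had the lowest p of the 10, 1.24e-04, with an adjusted p of 0.266. Without FLI morula replicate 7, 1 of the 10 and 86 genes in all were called. The FLI minus control difference of MYC was 0.70 in the morula and -1.56 in the blastocyst. EGR1 and FOS had unadjusted p-values of 0.0294 and 0.0139 (adjusted p = 0.575 and 0.546).

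Members of the other lists were not called for FLI at any stage either (0 of all genes). At the 9-16 cell stage 28 of 32 other immediate early genes had a positive FLI minus control difference, with a median of 0.24 against 0.01 for all genes, led by DUSP1 at 413.4 ± 97.4 in FLI and 229.6 ± 71.3 in control embryos (SD, n = 4 each; 0.87, adjusted p = 0.910) and MIDN at 89.3 ± 15.4 and 42.9 ± 20.1 (1.19, adjusted p = 0.910). In the morula 22 of 29 were positive (median 0.41 against 0.08), with CCN1, a matricellular protein, at 21.2 ± 3.86 in FLI and 8.82 ± 0.81 in control embryos (1.16 ± 0.25, adjusted p = 0.063). Of 9 other AP-1 genes 8 were positive there (median 0.59), with FOSL1 at 1.72 ± 0.34 and 0.848 ± 0.26. In the blastocyst 21 of 28 immediate early genes were positive (median 0.27 against 0.04), while 16 of 21 upstream kinases and factors were negative (median -0.52), with MAPK3, which encodes the ERK1 kinase, at 3.72 ± 3.52 in FLI and 23.5 ± 9.66 in control embryos (-2.52 ± 0.49, adjusted p = 0.162). Also in the blastocyst, 17 of 21 MYC target genes were positive (median 0.40). There 3 of 8 other AP-1 genes (median -0.18) and 5 of 15 MYC network genes (median -0.18) were positive. These list counts come from the main fit only. The part in them of the libraries low in rRNA fragments was not tested.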

How the data were processed

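The members and gene lists were chosen with earlier results of these data known. Per the labels' protocols, PicoPure columns gave the RNA and SMART-Seq v4, which primes on poly(A), the cDNA. FastQC, HISAT2, featureCounts and edgeR were used with build ARS-UCD1.2, per the submitters' processing notes; the sources used here name no version or strand setting. The deposited signal is reads scaled to library size, per the file headers and values: 100% of values were whole multiples of 1 value per library (tolerance 0.001), which gave the reads. Per the file headers, the authors' own log2 fold changes, likelihood-ratio score and p-values stand beside it. Exon length, chromosome and position come from the deposited tables.

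Treatment was tested per stage with limma 3.58.1 (trend, robust) on log2(signal + 1), for genes with a mean of at least 1, 4 FLI against 4 control libraries, or 3 in morula and blastocyst without the shallow controls. Stages were compared with limma on TMM-scaled log2(CPM + 1) of recovered reads, mean CPM at least 1, 8 groups in 1 fit of 30 libraries. edgeR 4.0.16 and DESeq2 1.42.0 (R 4.3.3) were alternatives, and both fits were tested on simulated data. Intervals and floors cover counting error only. rRNA fragments are the rows of 1 microRNA name known to match ribosomal RNA. Same-numbered FLI and control libraries deviated together at the 4-6 cell stage (r = 0.92, 0.69, 0.81 and 0.47 for numbers 6, 9, 7 and 8). Differently numbered libraries among 7, 8 and 9 did so too (r = 0.46 to 0.73). FLI replicate 8 was closer to control replicate 7 (0.73) than to control replicate 8. Number 6 thus stood apart in both groups, and a pairing of the other numbers is shown neither by these values nor by the labels. Up to 4 called genes a list were named by size, or 2 by p where none was called, and for each member the most correlated gene. 1 symbol of the MYC network list was an error and was dropped. Sequences were not used here. Stage and collection cannot be told apart.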

Additional observations from a re-analysis of the deposited data

Results flagged for a closer look

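In 60 groups of 4 libraries (10 genes in 6 groups), 5 had a library far from the other 3 by Dixon's ratio, and chance alone flags about 1 group in 20. Among 4-6 cell FLI embryos replicate 6 stood apart for JUNB (36.4 signal units against 93.0 to 103), EGR1 (6.97 against 15.9 to 17.7) and ATF3 (90.9 against 20.8 to 32.8). Among 4-6 cell control embryos replicate 6 stood apart for IER3 (17.3 against 4.19 to 4.44). Among FLI morulae replicate 7 stood apart for IER2 (218.6 against 99.6 to 105). These 3 libraries held 0.0109%, 0.0290% and 0.00225% of reads in rRNA fragments, the lowest shares of their groups.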

How the results depend on the processing

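Of the values per gene, the FLI minus control differences kept direction and call in 333 of 347 results under other settings (11 changed sign, 3 gained a call) and in 258 of 285 with 1 library left out (24 and 3). The stage steps did so in 426 of 478 (10 changed sign, 28 lost and 14 gained a call) and in 415 of 450 (14, 16 and 5). With edgeR 891 genes were called in the morula, and JUND at the 4-6 cell stage was -0.041. With DESeq2 1 of the 10 and 2547 genes were called in the morula, 1 and 474 in the blastocyst, and JUND at the 4-6 cell stage was -0.041. Among libraries with at least 0.2% rRNA fragments the FLI difference was -0.12 for JUND and -0.053 for ATF3 at the 4-6 cell stage, -0.042 for FOS, 0.13 for JUN and 0.11 for IER3 at the 9-16 cell stage, and -0.099 for JUN and -0.034 for IER2 in the morula; it was not run in the blastocyst, where 1 FLI library was left. With the replicate block no call changed at the 4-6 cell, 9-16 cell or blastocyst stage (0 of the 10 and 0 genes); in the morula, where it needs the shallow control, 1 of the 10 (IER2 at 3.96, adjusted p = 0.035, against 0.22 without that control, which held 0 IER2 reads) and 18 genes were called and IER3 was 0.33. All 8 blastocyst libraries gave 3 genes, and EGR1 at 0.25.

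All 32 libraries gave 3, 3 and 1 of the 10 and 904, 5727 and 963 genes for the 3 steps in FLI embryos and 1, 2 and 1 of the 10 and 693, 5956 and 1560 genes in control embryos. They put the blastocyst step at 0.0031 for JUND and 0.073 for MYC in FLI embryos and -0.80 for JUN and -1.89 for JUND in control embryos, and the morula step of JUNB in control embryos at -0.015. Fits of only the 2 groups compared gave 2145 genes for the first step in control embryos, 3 of the 10 for the last in FLI embryos, and -0.016 for JUNB in control morulae. With at least 0.2% rRNA fragments the last step had 3 of the 10 in FLI and 5 in control embryos, MYC at 0.053 in FLI and JUND at -0.082 in control embryos, JUNB was at -0.029 in control morulae, and the F test called 14 genes. With DESeq2 size factors MYC was 0.027 in the last FLI step. The cause of these changes was not tested.

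With 1 library left out, the FLI difference at the 4-6 cell stage ran from -0.48 to 0.22 for FOSB, -0.36 to 0.34 for JUNB, -0.26 to 0.15 for JUND, -0.40 to 0.011 for EGR1, -0.29 to 0.0024 for IER2 and -0.40 to 0.37 for ATF3. It ran from -0.042 to 0.39 for FOS, -0.22 to 0.13 for JUN, -0.53 to 0.16 for IER2 and -0.46 to 0.11 for IER3 at the 9-16 cell stage, -0.21 to 0.31 for JUN and -0.055 to 0.32 for IER2 in the morula, and -0.069 to 0.56 for IER3 in the blastocyst. Calls ran from 0 to 2 of the 10 and 0 to 4620 genes in the morula, 0 to 1 and 0 to 386 in the blastocyst, and 0 to 1 and 0 to 86 in the F test (86 without FLI morula replicate 7, 15 without control morula replicate 7, 3 without FLI blastocyst replicate 8). In FLI embryos the morula step had 5 to 9 of the 10 called (5 without FLI morula replicate 7) and the blastocyst step 3 to 6 (3 without FLI morula replicate 2 or FLI blastocyst replicate 7). The FLI blastocyst step ran from -0.51 to 0.16 for JUND, -0.10 to 0.57 for IER3 and -0.30 to 0.13 for MYC, and the first FLI step from -0.26 to 0.10 for FOS. In control embryos JUNB ran from -0.40 to 0.28 at the first step and -0.30 to 0.28 at the second, JUND from -0.0056 to 0.46 at the second and -0.087 to 0.48 at the last, and IER2 from -0.050 to 0.33 at the last.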

Other observations

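Of 22 kinases and factors that act on the immediate early genes, 6 were higher and 10 lower in FLI embryos and 6 higher and 12 lower in control embryos in the morula against the 9-16 cell stage, with median differences of -0.75 and -1.23. Of all genes 73.3% were called in FLI embryos (40.6% higher and 32.6% lower) and 73.6% in control embryos (39% and 34.6%). ELK3, an SRF partner, averaged 0.493 ± 0.29 CPM in FLI and 0.301 ± 0.065 CPM in control morulae, against 30.6 ± 5.67 and 31.6 ± 11.6 CPM at the 9-16 cell stage, a log2 difference of -4.41 and -4.58. MRTFA, an actin-regulated SRF partner, fell by 3.89 in FLI and 4.26 in control embryos. RPS6KA1, a kinase downstream of ERK, rose by 3.95 and 2.98, to 179.4 ± 35.2 CPM in FLI and 70.9 ± 29.2 CPM in control morulae. At the step before, ATF1, a CREB-family factor, rose by 3.14 and 3.04, and MAPK14, the p38 alpha kinase, fell by 1.03 and 1.08.

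Of 21 MYC target genes, 6 were higher and 1 lower at the 9-16 cell than at the 4-6 cell stage in both FLI and control embryos. Of all genes 31.2% were called in FLI embryos (15.2% higher and 16% lower) and 26% in control embryos (13.7% and 12.3%). CAD, an enzyme of pyrimidine synthesis, averaged 30.3 ± 12.4 CPM in FLI and 39.1 ± 23.8 CPM in control embryos at the 9-16 cell stage, against 1.17 ± 0.52 and 1.90 ± 1.02 CPM at the 4-6 cell stage, and ODC1, the first enzyme of polyamine synthesis, fell by 1.39 and 1.40. From morula to blastocyst 2 were higher and 3 lower in FLI and 1 higher and 5 lower in control embryos (40.7% and 32.8% of all genes were called), with LDHA, lactate dehydrogenase A, at 548.1 ± 91.6 CPM in control blastocysts and 41.2 ± 4.96 CPM in control morulae.

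The genes with a symbol, other than members and small RNA names, that followed each of the other members most closely over the 30 deep libraries were ranked by Pearson r. They were IBA57 for FOS (0.981), POU4F1 for FOSB (0.973), NPRL2 for JUN (0.926), RPUSD1 for JUNB (0.912), DCAKD for JUND (0.852), REM1 for IER2 (0.990), SELENOS for IER3 (0.981), NFAT5 for ATF3 (0.878) and TWSG1 for MYC (0.953). These libraries share the 4 stages, and the values describe that pattern.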
